A study of Mus musculus with 16 samples.

Results

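Actb, Capg, Plec, Apbb1ip, Capn2 and Cyth4 are 6 mouse genes whose proteins build, cap, link or regulate the actin cytoskeleton, and the open chromatin around them was measured in lineage-depleted bone marrow. They were chosen because regions near them held more ATAC-seq signal after interleukin-1β (IL-1β), so the IL-1β contrast is given for them as a description. Where a region is called past the threshold of the fit over all regions, the call says how that region was classed and is not evidence about the 6 genes. A consensus region is a stretch covered by a called peak in at least 2 of 16 libraries, and it was taken for a gene when it overlapped the RefSeq gene body or the 10 kb on either side. The 6 genes held 65 of the 83972 consensus regions, and 32 of these 65 were among the 24955 regions called in all 16 libraries (shared regions). Of the other 33 regions, 16 were called in 12 to 15 libraries and 17 in 2 to 11.

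ATAC-seq marks open chromatin by the insertion of the transposase Tn5. The groups were diabetic mice with IL-1β, diabetic mice at baseline, control mice with IL-1β and control mice at baseline, with 4 libraries each, all from male C57Bl/6 mice. Diabetes was induced with streptozotocin, which the control mice did not receive. The cells are labelled as haematopoietic stem cells and are lineage-negative bone marrow, obtained by removing cells positive for the antigens Gr1, Ter119, B220, CD4 and CD3, with no positive selection named. Ages of the mice are not given in the sources used here. Each mouse sample was divided, and 1 portion was cultured with IL-1β at 10 ng/mL for 6 h while the other was lysed at once. IL-1β and 6 h of culture therefore cannot be told apart in any value below.

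Actin polymerises into filaments that drive cell shape, adhesion and migration. Actb encodes β-actin itself, the monomer of these filaments. Capg blocks the growing filament end, Plec crosslinks actin to intermediate filaments, Apbb1ip (also RIAM) links the small GTPase Rap1 to talin and integrins, Capn2 is the large subunit of a calcium-dependent protease that cleaves adhesion proteins, and Cyth4 is an exchange factor for Arf GTPases. In leukocytes and their progenitors these steps serve adhesion to and exit from the marrow.

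Promoter sequences are shown first, because the region with the largest change at Capg and risen regions of Apbb1ip, Capn2 and Cyth4 overlap them. RefSeq's promoter table for GRCm38.p6, the same build as mm10, matched 4 of the 6 genes, and each window runs from 250 bases before to 50 bases after the transcription start on the gene's own strand. Capitals mark matches, on either strand, to an ETS core (GGAAG), a C/EBP motif (TTGCNNAA) or an AP-1 motif (TGANTCA).
Capg, chr6:72549397-72549696, plus strand: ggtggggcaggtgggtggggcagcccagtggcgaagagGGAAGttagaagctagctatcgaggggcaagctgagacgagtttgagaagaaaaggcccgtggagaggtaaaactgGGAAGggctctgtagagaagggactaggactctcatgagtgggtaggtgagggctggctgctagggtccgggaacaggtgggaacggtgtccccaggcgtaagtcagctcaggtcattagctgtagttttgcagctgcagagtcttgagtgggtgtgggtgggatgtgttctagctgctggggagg
Apbb1ip, chr2:22774077-22774376, plus strand: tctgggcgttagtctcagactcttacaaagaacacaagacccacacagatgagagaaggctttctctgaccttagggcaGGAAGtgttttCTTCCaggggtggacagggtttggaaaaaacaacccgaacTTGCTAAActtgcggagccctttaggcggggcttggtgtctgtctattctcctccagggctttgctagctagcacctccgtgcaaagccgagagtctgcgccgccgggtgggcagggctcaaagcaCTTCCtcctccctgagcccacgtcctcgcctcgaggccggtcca
Capn2, chr1:182517561-182517860, minus strand: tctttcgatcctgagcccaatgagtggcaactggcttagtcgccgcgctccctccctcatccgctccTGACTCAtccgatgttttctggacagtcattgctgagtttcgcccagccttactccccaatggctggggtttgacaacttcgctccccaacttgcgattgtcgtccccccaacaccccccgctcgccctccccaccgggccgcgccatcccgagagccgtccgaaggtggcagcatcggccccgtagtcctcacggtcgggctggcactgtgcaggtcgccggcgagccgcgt
Cyth4, chr15:78596797-78597096, plus strand: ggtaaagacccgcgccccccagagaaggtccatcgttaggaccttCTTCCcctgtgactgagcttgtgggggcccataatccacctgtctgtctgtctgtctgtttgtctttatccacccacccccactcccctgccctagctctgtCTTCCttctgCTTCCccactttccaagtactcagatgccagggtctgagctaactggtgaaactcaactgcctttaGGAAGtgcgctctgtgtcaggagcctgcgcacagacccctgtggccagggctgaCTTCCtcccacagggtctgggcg

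In all, 7 motifs were searched on both strands: the 3 above, the cAMP response element TGACGTCA, the RUNX motif TGTGGT, and the NF-κB consensus and the CArG box of serum response factor, each by name. The ETS core stood 5 times in the Cyth4 window, 3 times in that of Apbb1ip and 2 times in that of Capg, but 71.4% of all 32841 promoter windows hold it. Capn2 held an AP-1 motif, TGACTCA, with its first base at -183 from the start. AP-1 motifs occurred in 7.81% of all windows and in 4.42% of the 11443 windows that overlap a shared region. Apbb1ip held a C/EBP match, TTGCTAAA, at -120, and 10.8% of all windows hold one. None of the 4 windows matched the NF-κB consensus (5.81% of all windows), the cAMP response element (1.79%), the CArG box (1.63%) or the RUNX motif (16.8%). A match is a description of letters, not of a bound site.

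A single library stood apart before any comparison. Diabetic baseline 4 deviated by 0.58 from the mean of the other libraries of its group (root mean square of log2 reads over shared regions), against 0.21 to 0.43 in the other 15 libraries. It also had the lowest background, 0.856 reads, and the fewest reads at the median shared summit, 27 against 29 to 58 elsewhere. The main counts of regions are also given without it. Peak numbers ranged from 37543 to 72525 per library. Values below are reads at the highest summit of a region, recovered from the deposited fold and p-value and scaled so that all libraries have the same median over shared regions (scaled reads).

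The labelled cell type was set against marker genes. All 8 stem and progenitor genes (among them Kit, Cd34, Meis1 and Hlf) had a shared region, but so did 9 of 10 neutrophil genes, all 7 monocyte genes, all 5 erythroid genes and 4 of 5 megakaryocyte genes. T- and NK-cell genes had one in 2 of 5 cases, with none at Cd3e and Cd8a, and stromal and endothelial genes in 3 of 5. Of B-cell genes, Cd79a and Pax5 had one, with up to 125 scaled reads at Cd79a, and Ms4a1 had none. Open chromatin at some marker genes of mature cells was therefore detected in all 16 libraries. In such bulk material, a change in the share of cells that are open at a region and a change in signal per cell cannot be told apart.

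**Figure D1:**
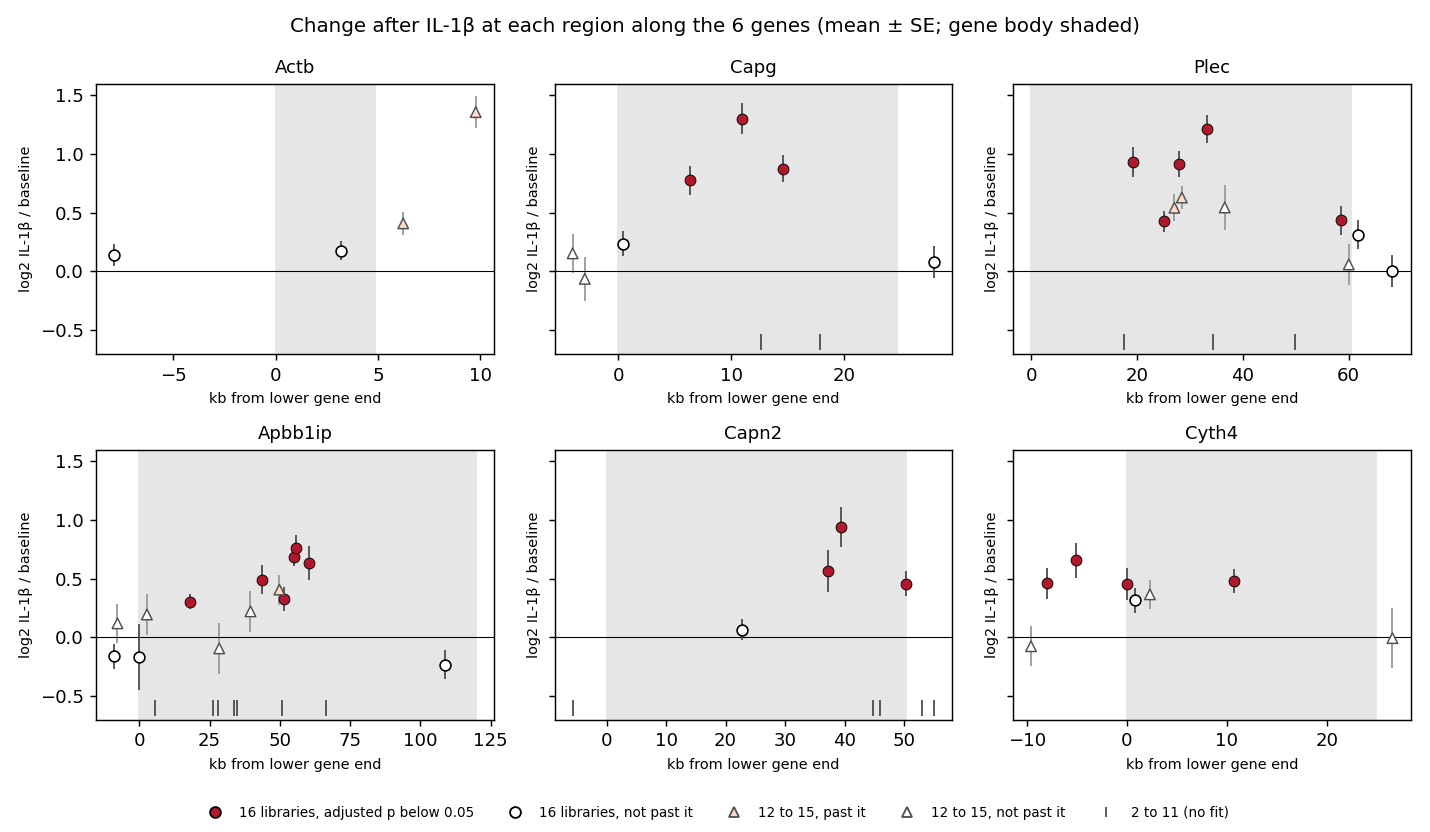
Log2 change of scaled reads after IL-1β (y) against the distance of the region's midpoint, in kb, from the lower-coordinate end of each gene body (x). Bars are SE. Shaded areas are gene bodies. The highest points are Capg region 5 (1.3), Actb region 4 (1.36, called in 14 libraries) and Plec region 7 (1.21).

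Of the 32 shared regions, 21 were past an adjusted p of 0.05 as higher after IL-1β and 0 as lower. The same fit called 6.42% of all shared regions higher, 3.4% lower and 9.82% in either direction, and 22.7% had an unadjusted p below 0.05. The rule selected on this contrast, so nothing is read from the difference between 65.6% and 6.42%. The median log2 change was 0.46 over the members' shared regions and 0.03 over all shared regions. In 19 regions the IL-1β portion was higher than the baseline portion in 8 of 8 mice (6.66% of all shared regions), and in 9 regions all 8 IL-1β libraries lay above all 8 baseline libraries (1.58% of all). Just inside the threshold lay Capn2 region 3, with a log2 change of 0.57 ± 0.18 (SE), and just outside it Cyth4 region 5, with 0.31 ± 0.10. Without diabetic baseline 4, 22 of the 32 were higher, against 11.1% of all shared regions (5.9% lower), and the call then also took in Actb region 2. Over the other 7 mice, 19 regions were higher in each (9.93% of all), and at 10 regions the remaining libraries did not overlap (2.00% of all).

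The risen regions lay mostly inside the gene bodies. Of the 21 risen regions, 19 overlapped gene bodies and 2 came, measured from their edges, within 1 kb of an outer end of any annotated gene body. Outer ends miss starts inside a body: 4 of the 21, Capg region 5, Apbb1ip region 6, Capn2 region 7 and Cyth4 region 4, overlap a promoter window shown above. Of the 32 shared regions of the 6 genes, 8 (25%) came that close to an end, against 39.8% of all shared regions. Since edges are used, these shares also depend on region width. The plot along the genes shows the largest values at Capg, Plec, Apbb1ip and Capn2 in the interior of the body, and lower values at shared regions outside the body of Capg (region 9, 0.08), Plec (region 14, -0.00034) and Apbb1ip (region 1, -0.16). At Cyth4, regions 2 and 3 before the gene start were among the risen ones, while region 1, farther out and called in 13 libraries, changed by -0.08 ± 0.17.

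At its shared regions β-actin followed the description of the group least. Actb (chr5:142903115-142907976) had 4 regions, and neither of its 2 shared regions passed the threshold in the fit of all libraries. Region 2 (chr5:142905609-142906978), which lies over the gene and outranks 99.4% of all shared regions in level, had 152, 141, 162 and 147 scaled reads in diabetic IL-1β libraries, against 158, 129, 131 and 172 in diabetic baseline libraries. In control mice it had 132, 172, 168 and 149 scaled reads after IL-1β, against 115, 132, 111 and 142 at baseline. The groups overlapped, and the log2 change was 0.17 ± 0.08 (SE). Without diabetic baseline 4, the highest of its group at this region, the change was 0.21 ± 0.07 and past the threshold. Region 1, which lies 7537 bp outside the body on the side of Fbxl18, changed by 0.14 ± 0.10.

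The larger changes at Actb were those of the other 2 regions, which were not called everywhere. Region 4 (chr5:142912728-142913059) lies 4752 bp beyond the upper end of the gene and was called in 14 libraries, missing from diabetic baseline 1 and diabetic baseline 4. It had 56.2, 46.7, 45.4 and 55.7 scaled reads in diabetic IL-1β libraries, against 17.8 and 20 in the diabetic baseline libraries that called it. Control libraries had 41.7, 44.7, 51.2 and 46.5 after IL-1β, against 22.8, 15.9, 14.2 and 24.5 at baseline. All 8 IL-1β libraries lay above every baseline library with a value. In a fit of the 40970 regions called in at least 12 libraries, with missing values left missing, its log2 change was 1.36 ± 0.14 (SE). Region 3 (chr5:142909033-142909667), 1057 bp beyond the same end and not called in diabetic baseline 4, changed by 0.41 ± 0.10. That fit called 6.23% of its regions higher, and 5 of the members' 16 regions called in 12 to 15 libraries were among them: Actb regions 3 and 4, Plec regions 4 and 6 and Apbb1ip region 14.

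**Figure D2:**
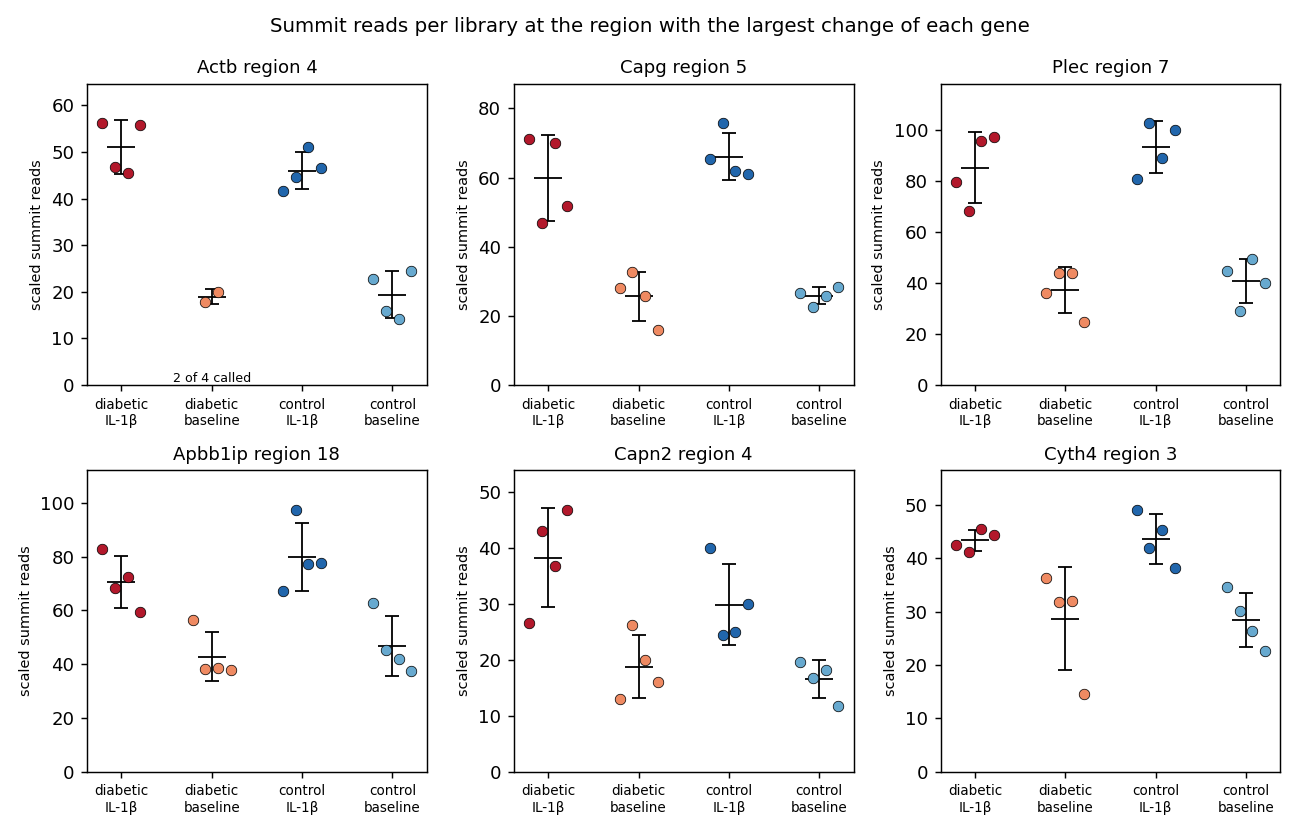
Scaled reads at the highest summit (y) in each library at the region of each gene with the largest log2 change after IL-1β, with group mean and SD. For Actb the region called in 14 libraries is shown. IL-1β libraries lie above baseline libraries without overlap at Actb region 4, Capg region 5, Plec region 7 and Cyth4 region 3.

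The capping gene Capg (chr6:72538282-72562983) had the largest change of the shared regions. Capg region 5 (chr6:72548960-72549582) had 71.1, 46.7, 69.9 and 51.9 scaled reads in diabetic IL-1β libraries, against 28.2, 32.7, 25.6 and 16 in diabetic baseline libraries. Control mice had 65.4, 75.8, 61.9 and 60.9 after IL-1β, against 26.7, 22.6, 25.7 and 28.5 at baseline. No IL-1β library overlapped a baseline library, and the log2 change was 1.3 ± 0.13 (SE). The region overlaps the promoter window printed above, with its median highest summit at -484 bp from a start that lies well inside the annotated body. Highest summits lay between 72549096 and 72549197 after IL-1β, all before the window's first base, 72549397. At baseline they lay between 72549124 and 72549432, so the change compares highest summits that were not always at the same position. Regions 4 and 7, inside the body on either side of region 5, changed by 0.77 ± 0.12 and 0.87 ± 0.12, also without overlap between IL-1β and baseline libraries.

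Capg's ends behaved differently. Its highest region, region 3 at the lower end of the body, had 60.5, 62.6, 74.8 and 64.6 scaled reads in diabetic IL-1β libraries, against 56.4, 51.4, 52.9 and 43.6 in diabetic baseline libraries. In control mice it had 39.3, 55.5, 54.7 and 44.4 after IL-1β, against 31.4, 55.1, 45.3 and 50.0 at baseline, so the control groups overlapped. Its log2 change was 0.24 ± 0.11. Region 9, 3017 bp beyond the upper end, changed by 0.08 ± 0.14, and regions 1 and 2 before the lower end by 0.15 ± 0.16 and -0.07 ± 0.19 in the fit over at least 12 libraries. Of Capg's 9 regions, 5 lie within 10 kb of a neighbouring gene.

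The linker gene Plec (chr15:76170974-76231378) had 14 regions, 5 of whose 7 shared ones were past the threshold. Region 7 (chr15:76203962-76204585), deep in the body, had 79.6, 68.2, 95.7 and 97.5 scaled reads in diabetic IL-1β libraries, against 36.2, 43.9, 44.1 and 24.7 in diabetic baseline libraries. In control mice it had 81.0, 103, 89.2 and 100 after IL-1β, against 44.8, 29.2, 49.4 and 40.2 at baseline. The IL-1β and baseline libraries did not overlap, and the log2 change was 1.21 ± 0.12. Regions 2 and 5 changed by 0.93 ± 0.13 and 0.92 ± 0.11 without overlap.

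Plec's highest region moved least among its risen ones. Region 3 (chr15:76195457-76196912) had 102, 96.3, 109 and 106 scaled reads in diabetic IL-1β libraries, against 96.6, 86.9, 73.7 and 58.2 in diabetic baseline libraries, and 101, 126, 114 and 110 in control IL-1β libraries, against 82.4, 79.3, 77.2 and 95.2 in control baseline libraries. Each mouse was higher after IL-1β, while the groups just overlapped, and the log2 change was 0.42 ± 0.09. Regions 4 and 6 between these peaks were missing only from diabetic baseline 4 and changed by 0.54 ± 0.12 and 0.63 ± 0.09. Region 14, 7721 bp beyond the upper end, changed by -0.00034 ± 0.14. Regions 1 and 10, each called in few libraries (4 and 2), were called in IL-1β libraries and in no baseline library.

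The integrin adaptor gene Apbb1ip (chr2:22755971-22875653) had the most regions, 21, with 9 shared and 6 of these past the threshold. Region 18 (chr2:22811440-22811827) had 82.8, 68.2, 72.4 and 59.5 scaled reads in diabetic IL-1β libraries, against 56.4, 38.3, 38.5 and 37.8 in diabetic baseline libraries. Control mice had 67.1, 97.5, 77.3 and 77.5 after IL-1β, against 62.8, 45.1, 42.0 and 37.3 at baseline. Control baseline 1 lay above the lowest IL-1β library, and the log2 change was 0.76 ± 0.11. Region 17, the neighbouring peak, changed by 0.68 ± 0.08 without overlap. Regions 13, 16 and 19 of the same stretch changed by 0.49 ± 0.12, 0.33 ± 0.10 and 0.63 ± 0.15.

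Apbb1ip's promoter was its highest region and changed little. Region 6 (chr2:22773457-22774885), with its median summit 2 bp from the start, had 92.3, 86.9, 93.2 and 92.4 scaled reads in diabetic IL-1β libraries, against 82.5, 76.6, 72.9 and 84.3 in diabetic baseline libraries. It had 85.9, 98.8, 106 and 94.0 in control IL-1β libraries, against 69.9, 76.0, 69.0 and 76.5 in control baseline libraries. The groups did not overlap, yet the log2 change was only 0.30 ± 0.07. Among its shared regions, 3 had changes below 0: region 1 (-0.16 ± 0.11), region 3 at the lower gene end (-0.17 ± 0.28) and region 21 (-0.23 ± 0.12), none past the threshold. Region 3 was the most variable, with 14.9, 25.2, 29.4 and 27.9 scaled reads in diabetic IL-1β libraries, against 12.1, 30.8, 36.1 and 66.9 in diabetic baseline libraries.

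The calpain gene Capn2 (chr1:182467253-182517610) had 9 regions, 3 of whose 4 shared ones were past the threshold. Region 4 (chr1:182506273-182506991) had 26.5, 43.0, 36.8 and 46.9 scaled reads in diabetic IL-1β libraries, against 13.1, 26.2, 20 and 16 in diabetic baseline libraries. Control mice had 40.1, 24.4, 25.0 and 30.0 after IL-1β, against 19.6, 16.7, 18.3 and 11.8 at baseline. Diabetic baseline 2 lay above the lowest IL-1β libraries, and the log2 change was 0.94 ± 0.17. The promoter region 7, whose summit lies 53 bp from the start, changed by 0.46 ± 0.11. The highest region, region 2 (chr1:182489720-182490367), had 63.7, 54.2, 63.8 and 73.4 scaled reads in diabetic IL-1β libraries, against 59.4, 57.9, 59.3 and 85.8 in diabetic baseline libraries. Control values there were 58.9, 67.7, 57.1 and 65.1 after IL-1β, against 59.7, 52.6, 51.4 and 59.9 at baseline. These overlapped, with a log2 change of 0.06 ± 0.09.

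The Arf exchange factor gene Cyth4 (chr15:78597047-78622019) had changes of similar size throughout its shared regions. Of its 5 shared regions, 4 were past the threshold, and all 5 had log2 changes between 0.31 and 0.65. Region 3 (chr15:78591714-78592226), 4821 bp before the gene, had 42.4, 41.1, 45.4 and 44.3 scaled reads in diabetic IL-1β libraries, against 36.2, 31.8, 32 and 14.5 in diabetic baseline libraries. It had 49.1, 42.0, 45.2 and 38.2 in control IL-1β libraries, against 34.5, 30.1, 26.4 and 22.6 in control baseline libraries. The groups did not overlap, and the log2 change was 0.65 ± 0.15, or 0.50 without diabetic baseline 4. Region 7 inside the gene, the highest, had 70, 61.7, 71.2 and 74.7 scaled reads in diabetic IL-1β libraries, against 69.5, 49.5, 44.1 and 36.3 in diabetic baseline libraries. In control mice it had 63.8, 83.9, 80.9 and 72.3 after IL-1β, against 58.1, 51.8, 58.9 and 51.0 at baseline. Its log2 change was 0.48 ± 0.10, and diabetic baseline 1 overlapped the IL-1β libraries. The promoter region 4 changed by 0.46 ± 0.14.

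The ratio of these regions' reads to local background changed much less than the reads. The deposited fold of a peak is its summit reads over the peak caller's local background. As deposited, the median fold was higher after IL-1β at 13 of the 21 risen regions and lower at 8, and over all shared regions the median log2 change of the deposited fold was -0.10. With each library's median fold made equal, the change was above 0 at 17 of the 21, against 94.8% of all shared regions that were higher by reads. At Capg region 7 the median fold was 6.14 after IL-1β and 6.16 at baseline, although its reads differed without overlap. At Plec region 3 it was 4.87 after IL-1β and 6.31 at baseline, lower in 8 of 8 mice. At Capg region 5 it was 5.52 after IL-1β and 4.26 at baseline, higher in 7 of 8 mice.

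Fitted in place of reads, with each library's median fold made equal, the fold was past the threshold at 3 of the 32 shared regions (9.38%): Capg region 5 (log2 change 0.51 ± 0.11, SE), Plec region 7 (0.41 ± 0.10) and Cyth4 region 3 (0.40 ± 0.10). All 3 were higher after IL-1β. That fit called 3.92% of all shared regions higher and 2.21% lower, and the members' median change was 0.10 against 0.04 over all shared regions. Of all shared regions that were higher by reads, 31.9% were also called higher by fold. Both Actb shared regions had fold changes below 0, with -0.26 ± 0.11 for region 1 and -0.17 ± 0.11 for region 2. At Actb region 4 the median fold was 4.91 in diabetic IL-1β libraries and 3.33 in diabetic baseline libraries, and 4.63 in control IL-1β libraries and 3.24 in control baseline libraries.

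The local background itself was higher after IL-1β at all 32 shared regions of the 6 genes, on the scale used for reads. Its median log2 change was 0.60 over the 32, 0.80 over the 21 risen regions and 0.12 over all shared regions, of which 77.7% had a change above 0. At Plec region 3 it averaged 21.9 ± 3.01 reads after IL-1β and 12.1 ± 2.61 reads at baseline (SD, n = 8 each). At Capg region 5 it averaged 10.6 ± 0.751 reads after IL-1β and 5.30 ± 0.655 reads at baseline (SD, n = 8 each). Recovered background and summit reads were thus higher together at these regions. The window of the background is not given, so it may take in the peaks themselves or neighbouring risen peaks. At Plec region 5 it averaged 21.9 ± 2.90 reads after IL-1β and 12.1 ± 2.57 reads at baseline, near the values of region 3. Because the genes were chosen for risen regions, no separate rise of the surroundings is read from it. Scaling libraries by their lowest background in place of equal medians moved the median of all shared regions to -0.24 and left 8 of the 32 regions past the threshold, with a median of 0.19. That scaling called 0.813% of all shared regions higher and 9.39% lower.

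**Figure D3:**
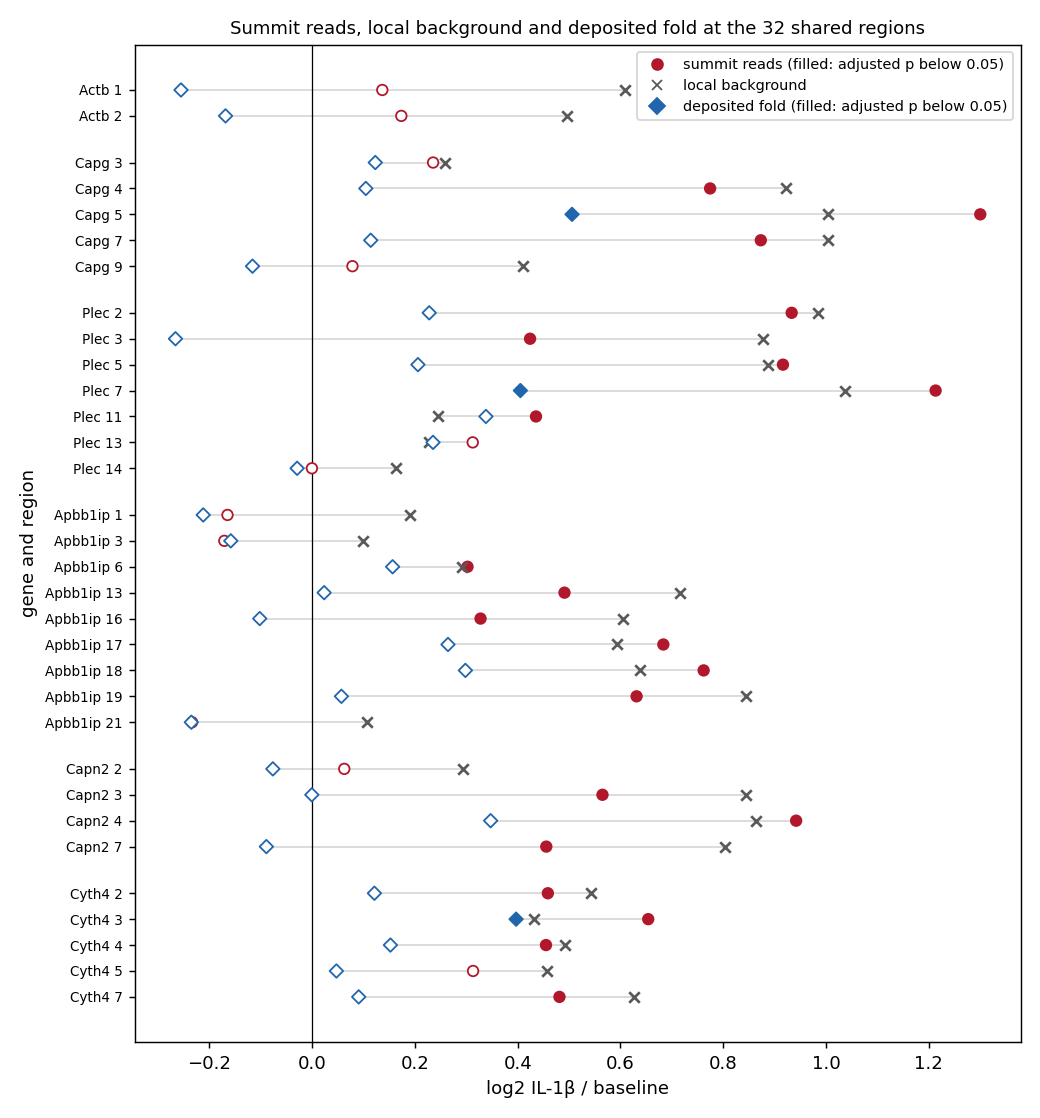
Log2 change after IL-1β (x) of summit reads (circles), local background (crosses) and deposited fold (diamonds) at the 32 shared regions (y). Filled symbols are past an adjusted p of 0.05. All crosses lie above 0, while filled diamonds stand only at Capg 5, Plec 7 and Cyth4 3.

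The place of the highest summit was steady in most regions. In 27 of the 32 shared regions, the highest summits of all 16 libraries fell within 200 bp of each other. In the promoter-overlapping Capg region 5 they lay between 72549096 and 72549197 in IL-1β libraries and between 72549124 and 72549432 in baseline libraries, and the medians differed by -231 bp (IL-1β minus baseline). In Plec region 2 they lay between 76190329 and 76190367 in IL-1β libraries and between 76190031 and 76190368 in baseline libraries, with medians 283.5 bp apart. In Capg region 4 and Plec region 13 the medians differed by -304.5 and -218.5 bp, with overlapping ranges. Each of these 4 regions held more than 1 summit in at least 1 library, and so did Apbb1ip region 6, whose medians differed by 8 bp.

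The share of the 65 regions that was called was similar after IL-1β and at baseline. Of these, 32 are called in all 16 libraries by definition, so their calls cannot differ. Over the 65 regions, IL-1β libraries called 77.9% and baseline libraries 79.0%, whereas over all consensus regions these shares were 59.1% and 68.4%. Among the 33 regions not called everywhere, 17 were called in more IL-1β than baseline libraries, 14 in fewer and 2 in equal numbers. Over all 59017 such regions the shares with more calls after IL-1β and more at baseline were 21.3% and 63.7%. The median width of the 65 regions was 431 bp, against 373 bp for all consensus regions.

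Averaged over the shared regions of a gene, the IL-1β portion was higher than the baseline portion in 8 of 8 mice at every gene but Actb, where it was higher in 6. The mean log2 change per mouse was 0.16 ± 0.21 at Actb, 0.65 ± 0.17 at Capg, 0.61 ± 0.30 at Plec, 0.29 ± 0.12 at Apbb1ip, 0.51 ± 0.14 at Capn2 and 0.47 ± 0.24 at Cyth4 (SD, n = 8). Actb was thus the gene whose mean change was smaller than its spread over mice.

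**Figure D4:**
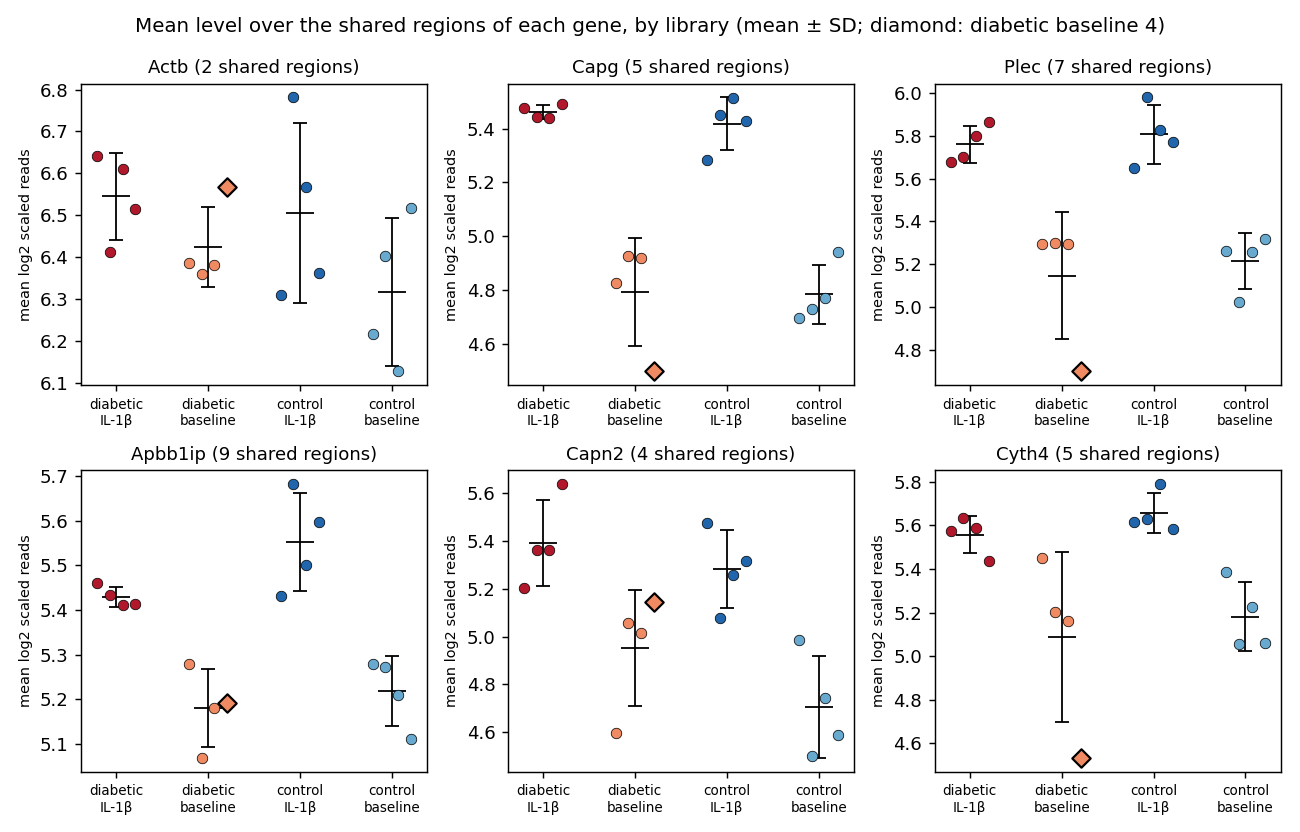
Mean log2 scaled reads over the shared regions of each gene (y) in every library, by group, with group mean and SD. The diamond is diabetic baseline 4, which is the lowest library at Capg, Plec and Cyth4 and the highest of its group at Actb and Capn2. The y axes do not start at 0.

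The question of whether diabetes altered these regions was tested with limma over all shared regions, which the choice of members did not use. At baseline, 0 of the 32 regions and 0% of all shared regions were past an adjusted p of 0.05. Limma's unadjusted p was below 0.05 at 0 of the 32, against 11.8% of all shared regions. The smallest was at Actb region 2, with 147 ± 20.8 scaled reads in diabetic baseline libraries and 125 ± 14.6 in control baseline libraries (SD, n = 4 each). There limma gave a log2 difference of 0.23 ± 0.12 (SE) and an adjusted p of 0.423. Differences ranged from -0.29 at Apbb1ip region 16 to 0.62 at Apbb1ip region 3, where diabetic baseline 4 had 66.9 scaled reads. Without that library the difference at Apbb1ip region 3 was 0.25, and the 32 ranged from -0.25 to 0.42. They were negative at 21 of the 32, against 39.0% of all shared regions, with a median of -0.08 against 0.07.

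The share of negative differences depended on diabetic baseline 4. Without it, 13 of the 32 differences were negative and their median was 0.03, while all shared regions had a median of 0.04. Limma's unadjusted p was then below 0.05 at 1 of the 32 and at 4.21% of all shared regions, with 0 past the adjusted threshold. Per gene, the median without that library was 0.06 at Actb, 0.16 at Capg, 0.03 at Plec, -0.06 at Apbb1ip, 0.15 at Capn2 and 0.05 at Cyth4. The same library was also low in regions of neutrophil genes, with a centred log2 mean of -0.70 over 24 shared regions against -0.22 to 0.16 in the other diabetic baseline libraries. Its mean was -0.46 over 17 regions of monocyte genes and 0.61 over 13 regions of erythroid genes. The part of cell composition in these values was not tested.

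After IL-1β, no member region passed the test between phenotypes. Of the 32, 0 were past an adjusted p of 0.05 (0% of all shared regions), and the smallest adjusted p was 0.970 by limma. Limma's unadjusted p was below 0.05 at 2 of the 32, against 4.35% of all shared regions. In the fit without diabetic baseline 4 there were 3, with Cyth4 region 4 (-0.32 ± 0.13, SE) added, against 7.98% of all, and the smallest adjusted p was 0.429 by limma. The first 2 were Capg region 3, with 65.6 ± 6.36 scaled reads in diabetic IL-1β libraries and 48.5 ± 7.95 in control IL-1β libraries, and Apbb1ip region 1, with 30.8 ± 3.97 and 39.6 ± 5.94 in these 2 groups (SD). Their log2 differences were 0.45 ± 0.15 and -0.36 ± 0.15 (SE). At Capg region 3 each diabetic IL-1β library, from 60.5 to 74.8 scaled reads, lay above each control IL-1β library, from 39.3 to 55.5.

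The change after IL-1β was also compared between phenotypes. No member region had a difference of changes past an adjusted p of 0.05 (0% of all shared regions), and limma's unadjusted p was below 0.05 at 0 of the 32, against 1.67% of all. Without diabetic baseline 4 it was below 0.05 at 1 of the 32, Plec region 2 (-0.51 ± 0.24, SE), against 2.05% of all. Differences ranged from -0.43 to 0.27, or from -0.51 to 0.18 without diabetic baseline 4, with a median standard error of 0.24. At Capg region 5 the log2 change was 1.25 ± 0.18 in diabetic mice and 1.35 ± 0.18 in control mice. At Plec region 7 it was 1.22 ± 0.17 in diabetic mice and 1.21 ± 0.17 in control mice. Averaged over its shared regions, Apbb1ip changed by 0.25 ± 0.08 in diabetic mice and 0.34 ± 0.15 in control mice (SD, n = 4 each).

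**Figure D5:**
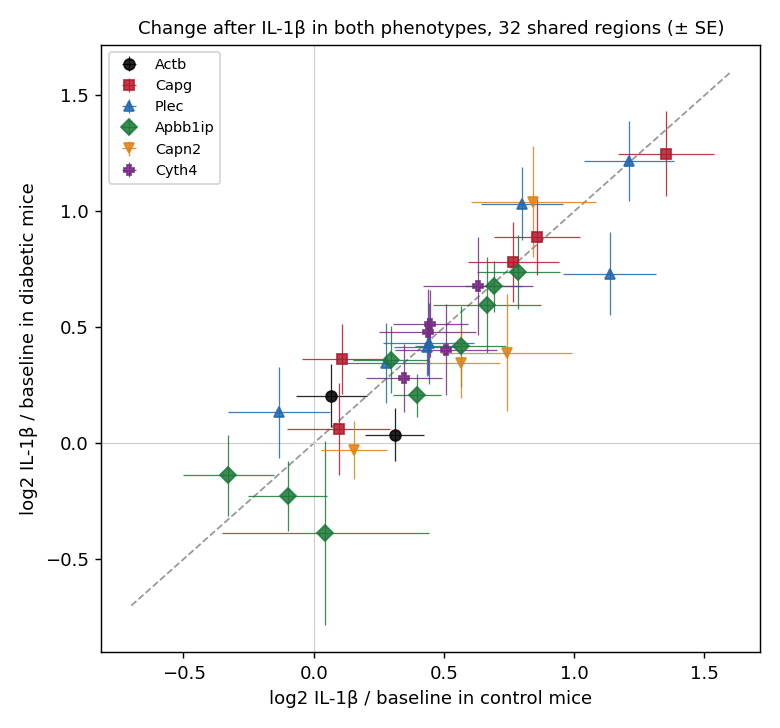
Log2 change after IL-1β in diabetic mice (y) against control mice (x) at the 32 shared regions of the 6 genes, with SE. The dashed line marks equal change. Points scatter around it, from Apbb1ip region 21 (-0.14 in diabetic mice, -0.33 in control mice) to Capg region 5 (1.25 in diabetic mice, 1.35 in control mice). Among those off the line are Apbb1ip region 3 (-0.39 in diabetic mice, 0.05 in control mice) and Plec region 2 (0.73 in diabetic mice, 1.14 in control mice).

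The number of regions called was tested between phenotypes as well. For each gene, the number of called regions per 1000 called regions of a library was compared by a two-sided exact permutation test over 70 assignments, whose smallest p is 0.0286. No member passed the unadjusted threshold in any of the 3 contrasts, with p from 0.200 to 0.943. After adjustment 0% of 11769 genes passed. With so high a smallest p, adjustment over this many genes could call one only if a large share of them reached it. Nothing is therefore read from the adjusted result. Unadjusted shares over all genes were 2.53% at baseline, 1.72% after IL-1β and 1.63% for the difference of changes. At Cyth4, with the smallest p, libraries called 0.136 ± 0.0140 per 1000 after IL-1β in diabetic mice and 0.163 ± 0.0316 in control mice (SD, n = 4 each, exact permutation p = 0.200). The diabetic IL-1β libraries called 6 or 7 regions and the control IL-1β libraries 7 or 8.

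The genes whose libraries varied most like each member were found by correlating mean centred log2 reads over 16 libraries, across genes with at least 3 shared regions. As a description, Capg was most like Plec (r = 0.96) and Dnmt1 (0.95), and Plec was most like Cdc6 (0.98) and Il17ra (0.98). Cyth4 was most like Fgd3 (0.97) and Slc43a2 (0.96), Apbb1ip like Nfe2 (0.91) and Ctdsp1 (0.90), Capn2 like Havcr2 (0.92) and Baiap2l1 (0.90), and Actb like Kri1 (0.89) and Sumo3 (0.88). These points share the IL-1β contrast and the same libraries. Within groups, after removal of group means, Capg and Plec had r = 0.84, Plec and Cyth4 0.71 and Capg and Cyth4 0.55, with diabetic baseline 4 low in all 3. All other pairs of members lay between -0.45 (Actb and Capn2) and 0.23 (Actb and Apbb1ip).

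Other actin cytoskeleton genes were compared through a list of 94 genes grouped by role, drawn up with earlier results of these data known, leaving out the members' own regions. Of their 280 shared regions, 52 (18.6%) were higher after IL-1β and 3 (1.07%) lower by limma, against 6.42% and 3.4% of all shared regions, with a median log2 change of 0.12 against 0.03. With the mouse as a block 71 were higher and 5 lower, where 9.62% and 5.19% of all shared regions were. By deposited fold 17 were higher and 4 lower, where 3.92% and 2.21% of all were. By background scaling 1 was higher and 7 lower, where 0.813% and 9.39% of all were. These counts share libraries and scaling with the members' and are a description of the list. By role, genes of filament nucleation had 15 of 58 regions higher, integrin activation 6 of 24, monomers and their binding proteins 6 of 27, and motors and tropomyosins 6 of 27. Cytohesins and small GTPases had 8 of 51, capping and severing 2 of 16, calpains 1 of 8 and the serum response factor pathway 0 of 11. Crosslinkers and linkers had 8 higher and 3 lower of 58.

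The roles of the list include those of the members, so relatives and partners of theirs could be among the genes called by construction. Those named here are a description. A region of Cyth1, another cytohesin, had 64.6 ± 6.72 scaled reads after IL-1β and 41.6 ± 7.39 at baseline (SD, n = 8 each; limma log2 change 0.65, adjusted p = 0.000205). A region of Macf1, a plakin like Plec, had 54.9 ± 4.75 after IL-1β and 39.6 ± 3.96 at baseline (log2 change 0.47, limma adjusted p = 0.000494). Both also passed by deposited fold, with log2 changes of 0.33 each. Itgb2, the β2 integrin chain that the Apbb1ip pathway activates, changed by 0.62 in reads but by -0.034 in fold.

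Capns1, the small subunit that pairs with Capn2, changed by 0.38 in reads and 0.04 in fold, at a region that also lies within 10 kb of Cox7a1. Dock2, a Rac exchange factor, changed by 0.44 in reads and 0.05 in fold, and Fmnl1, a formin, by 0.52 in reads and -0.073 in fold. Lower by reads were regions of Ezr, which ties actin to the membrane (log2 change -0.33, limma adjusted p = 0.0267), and Vcl, a component of focal adhesions (-0.28, limma adjusted p = 0.0365), each lower in 8 of 8 mice. With single libraries left out, the Ezr region stayed past the threshold in 10 of 16 fits and the Vcl region in 7 of 16. The Vcl region also lies within 10 kb of Ap3m1. By fold both were above 0, at 0.42 for Ezr and 0.058 for Vcl. None of the 6 genes named as higher passed under background scaling. In all 3 phenotype contrasts 0 of the 280 regions were called.

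Marker genes of other cell types were measured over the same IL-1β contrast. Of 24 shared regions of neutrophil genes, 4 (16.7%) were higher and 1 (4.17%) lower, with a median log2 change of 0.14. Over all shared regions 6.42% were higher and 3.4% lower, and over the actin list 18.6% and 1.07%. Of 17 monocyte regions 2 (11.8%) were higher, and of 11 stem and progenitor and 13 erythroid regions 0 were called, with medians of 0.14, -0.07 and 0.12. Among 8 megakaryocyte regions 1 was higher, and among 2 T- and NK-cell and 4 stromal and endothelial regions 0 were called. That megakaryocyte region was taken for Gp1ba, lies near Pfn1 and other genes too, and is also counted in the actin list. The centred log2 mean of neutrophil regions spanned -0.17 to 0.12 in diabetic IL-1β libraries, -0.70 to 0.16 in diabetic baseline libraries, 0.12 to 0.29 in control IL-1β libraries and -0.02 to 0.16 in control baseline libraries. Their part in the members' values was not tested.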

How the data were processed

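The 16 deposited peak lists, 1 per library, hold for each summit a score, a fold (a ratio of summit reads to local background), a −log10 p and a −log10 q, all deposited as the authors' caller gave them. The submitters' processing notes name mm10 as the build, and name edgeR, MACS2 2.1.1, Bowtie2 2.2.6, DiffBind 2.4.8, FastQC 0.11.3 and Trim Galore 1.8. Their roles, read shifting, duplicate removal and the window of the local background are not given in the sources used here. Per the labels, nuclei of 50000 cells were tagged and sequenced with 50-bp single reads. The deposited score was not used, and −log10 q served only as a filter.

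Peaks were merged where they overlapped or touched, into 102496 stretches. Whole summit reads and local background were recovered from each deposited fold and −log10 p within 0.001, for at least 99.999% of summits per library. Log2 reads of the highest summit, scaled to equal medians, were fitted with limma 3.58.1 (R 4.3.3) as 4 group means with a shared trended variance, and p-values were adjusted by Benjamini-Hochberg over all 24955 shared regions. Regions called in fewer than 16 libraries enter only where said. Fit and permutation test were tested on simulated data. Genes came from RefSeq for GRCm38.p6, and assignment rests on position alone. Members and lists were chosen with earlier results of these data known. Named in full are each member's highest region and the one with the largest change, and listed genes with the smallest adjusted p, up to 6 per direction. Actb region 4 and the fold comparison were added after the values were seen.

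The study's design divides each mouse sample, so portions are paired by mouse. Deviations of paired portions from group means correlated by 0.40, 0.19, -0.04 and 0.33 in diabetic mice and by 0.42, 0.36, 0.01 and 0.07 in control mice. Replicates are separate mouse samples by that design. Summit reads of the median shared region, 27 to 58, limit precision. A gene of the B-cell marker list is not reported here.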

Additional observations from a re-analysis of the deposited data

Results flagged for a closer look

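Dixon's ratio was examined in 68 groups of 4 libraries, and 6 passed its 95% critical value for 4 samples, which chance passes in about 5% of groups. Diabetic baseline 4 was the distant library in 4 of them. It was low at Cyth4 region 3, with 14.5 scaled reads against 31.8 to 36.2, and in the Plec mean over shared regions, with 26 against 39.2 to 39.4. It was high at Capn2 region 2, with 85.8 against 57.9 to 59.4, and in the Actb mean, with 94.8 against 82.2 to 83.7. At Apbb1ip region 18 diabetic baseline 1 had 56.4 scaled reads, against 37.8 to 38.5 in the rest of its group. At Apbb1ip region 6 diabetic IL-1β 2 had 86.9, against 92.3 to 93.2 in the rest of its group.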

How the results depend on the processing

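Over 40 results and their alternatives, 813 of 879 values were classed as the same. Among these values are the counts called in phenotype contrasts, by limma and by permutation, which were 0 in nearly every setting. The permutation counts after adjustment could hardly have been anything else, so the share says little about the other results. Counts had to lie within 1.5 times the main count. Listed genes and phenotype differences of a region had to keep direction and side of the threshold. The IL-1β change of a named member region had only to lie within its SD over mice of the main value. That rule ignores the threshold: with background scaling, Cyth4 region 3 counted as the same at 0.38, yet was not past it (limma adjusted p = 0.151). The members' regions higher after IL-1β numbered 21, 8 with background scaling and 3 with the deposited fold (added after seeing the data), 17 to 22 when single libraries were left out (17 without diabetic IL-1β 2) and 20 without regions near other genes. The mouse as a replicate block gave 22 and moved no named region or gene across the threshold. Among the listed genes the higher count was 52, 1 with background scaling, 17 with the deposited fold and 42 to 68 with single libraries left out. Their lower count was 3, 7 with background scaling, 6 over regions called in at least 12 libraries, 5 with the replicate block and 0 to 8 with single libraries left out (0 without diabetic IL-1β 4, diabetic baseline 2, control IL-1β 1 or control baseline 4, 8 without diabetic baseline 4).

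Over all shared regions 1603 were higher, 203 with background scaling, 2551 over regions called in at least 12 libraries, 978 with the deposited fold and 1243 to 2775 with single libraries left out (2775 without diabetic baseline 4). Lower were 848, 2343 with background scaling, 1294 with the replicate block, 551 with the deposited fold and 639 to 1473 with single libraries left out (1473 without diabetic baseline 4). Phenotype contrasts called 0, except 1 region for the difference of changes with the sum of summits and 1 at baseline with the deposited fold, neither a member's. The deposited fold turned Plec region 3 to -0.27, Itgb2 to -0.034, Fmnl1 to -0.073, Ezr to 0.42 and Vcl to 0.058. The cause was not tested. Depth limits low regions most: a summit of 27 reads has a large counting error.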
